A study of Mus musculus with 6 samples.

Results

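The subject is a set of 31 mouse genes for the exocytosis of insulin granules and for the ion channels that set the electrical state of the beta cell, followed in islets that lost Trsp under either of 2 Cre drivers. The 31 genes were chosen by name, as 20 genes of the fusion machinery and 11 channel genes, and their values were read from every array probe annotated with a RefSeq accession of the gene. A probe was named for 30 of the 31 genes, among 32496 genes on the array, where sequences without a gene symbol count under their own identifier. For Scn9a, which encodes the pore of a voltage-gated sodium channel, no probe was named. Of the 30, 29 were tested among 19021 genes tested in all. The remaining gene was Cacna1c, the pore of an L-type calcium channel, whose probe was well above background on 1 TrspFF array, 1 Trsp-RIPKO array and 0 Trsp-Ins1KO arrays.

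Trsp encodes the transfer RNA for selenocysteine, the amino acid on which all selenoproteins depend. Messenger RNA of whole pancreatic islets was measured on 6 one-colour arrays, 2 for each of 3 genotypes. All 3 groups carried floxed Trsp on both alleles on an ICR background, and the labels give all mice as male and 16 weeks old. TrspFF mice carried the floxed alleles and no Cre, Trsp-RIPKO mice added RIP-Cre, driven by the rat insulin promoter, and Trsp-Ins1KO mice added Ins1-Cre, a driver tied to the mouse gene Ins1. A group with Cre and unfloxed Trsp was not analysed here, and RIP-Cre is known to act in some neurons of the hypothalamus as well as in beta cells. The labels leave unsaid whether both arrays of a genotype stem from different mice, so the p-values reflect only how far these arrays lie apart, which may be a technical spread.

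When glucose is metabolised in a beta cell, ATP closes the KATP channel, the membrane depolarises and voltage-gated calcium channels open. Calcium is read by synaptotagmins and related sensors, which trigger SNARE proteins of the granule and the plasma membrane to fuse the 2 membranes. Before that step Rab GTPases and their effectors tether granules, priming factors make them ready and complexins hold or assist the SNARE bundle. Other potassium channels then help to repolarise the membrane.

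The levels given here are log2 intensities minus each array's 75th percentile, so that a level of 0 is the intensity at that percentile. They are compared within a gene and not between genes, since probes differ in brightness. The 75th percentile of processed intensity lay between 203.0 and 247.2 on the 4 arrays of TrspFF and Trsp-RIPKO islets, and at 121.9 and 110.7 on the Trsp-Ins1KO arrays. Between 51.4% and 61.0% of probes were well above background, and 0 probes were saturated. On this scale the dimmest signal still well above background stood at -4.41 to -4.09 on the 4 brighter arrays and at -3.59 and -3.39 on the Trsp-Ins1KO arrays, which bears on the dim genes below. The arrays of a pair differed by an SD of 0.15 to 0.218 over 19486 probes, against 0.427 to 0.555 between groups. TrspFF and Trsp-Ins1KO arrays shared a slide while the Trsp-RIPKO arrays lay alone on another, so slide and genotype cannot be told apart for Trsp-RIPKO. The scanner software also marked the 2 Trsp-RIPKO arrays for evaluation and the other 4 as in range.

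Sample names disagreed between the deposited sources. In the authors' table of log2 values, the columns named TrspFF equalled the scanner files of Trsp-Ins1KO (r = 1 over 19486 probes, against r = -0.268 and -0.468 with their own files), the columns named Trsp-Ins1KO equalled the TrspFF scanner files, and those of Trsp-RIPKO matched under their own name. All directions below follow the scanner files. Under the names of the table every difference between Trsp-Ins1KO and TrspFF takes the opposite sign, and Trsp-RIPKO is set against the arrays filed as Trsp-Ins1KO. The label of sex was also met unevenly. Xist, a long RNA made from the inactive X chromosome of females, was well above background on both TrspFF and both Trsp-RIPKO arrays, at -0.56 and -0.32 and at 1.05 and 1.34, and on 0 Trsp-Ins1KO arrays. Both Y-linked genes checked, Ddx3y and Eif2s3y, were well above background on all 6 arrays. The groups differed in these genes too: in Trsp-RIPKO against TrspFF Xist was higher by 1.63, Ddx3y fell by 1.36 and Eif2s3y fell by 1.12 (limma adjusted p = 0.00463, 0.00424 and 0.00331). In Trsp-Ins1KO against TrspFF the measured difference of Xist was -5.26 (limma adjusted p = 0.000322), down to a signal not well above background. Eif2s3y fell by 0.40 there (adjusted p = 0.0135), and Ddx3y did not pass (-0.24, adjusted p = 0.142). Xist thus varied together with genotype in every contrast, so sex-linked differences and genotype cannot be told apart. The part of the sex-linked differences in the results below was not tested.

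The channel genes mostly stood higher in Trsp-Ins1KO islets, while the fusion machinery moved in both directions. Against TrspFF, 14 of 29 genes rose (48.3%) and 5 fell (17.2%) in Trsp-Ins1KO islets, where 23.0% of all genes tested rose and 22.9% fell by the same rule (limma, Benjamini-Hochberg adjusted p under 0.05, n = 2 arrays per group). The median log2 difference of the 29 genes was 0.26, against -0.01 over all genes. Of the 9 channel genes tested 7 rose and 0 fell, and of the 20 fusion genes 7 rose and 5 fell. A fit of these 2 genotypes alone, which lie on 1 slide, leaves each difference unchanged and re-estimates only the spread. It gave 14 higher and 5 lower. With the mean over probes the channel genes Cacnb2 (-0.04, limma adjusted p = 0.813) and Kcnj11 (0.26, adjusted p = 0.14) did not pass. The other channel genes called higher kept their calls there. Cplx1, counted among the 5 lower, was well above background on neither Trsp-Ins1KO array. With normexp background correction 17 of the set rose, where 9199 of all 19021 genes rose. In Trsp-RIPKO islets 7 genes rose (24.1%) and 4 fell (13.8%), where 18.9% of all genes rose and 17.5% fell, and the median was 0.04 against 0.00. The Trsp-RIPKO shares were thus close to those of the array as a whole. Both comparisons share the TrspFF arrays.

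Directly against Trsp-RIPKO, Trsp-Ins1KO islets were higher in 12 of the 29 genes and lower in 4, where 19.3% of all genes were higher and 19.4% lower, with a median of 0.23 against -0.01. The call pattern by gene was as follows. Snap25, Syt9, Rph3al, Cplx2, Cacnb2 and Kcnq1 rose in both lines against TrspFF, and Rab27a, Sytl4 and Cadps fell in both. Cacna1a rose and Trpm4 fell past the threshold in Trsp-RIPKO and not in Trsp-Ins1KO. The 8 genes called higher in Trsp-Ins1KO and not in Trsp-RIPKO were Rab3a, Rab3b, Napa, Cacna1d, Kcnj11, Abcc8, Kcnk16 and Kcnh6, and for all 8 the direct contrast between the lines passed the threshold too. Syt11 and Cplx1 were called lower in Trsp-Ins1KO alone, also with a called direct contrast.

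The scaling bears on the Trsp-RIPKO counts. When each array was centred on its median in place of the 75th percentile, the median of all genes in Trsp-RIPKO against TrspFF moved to -0.238 (to 0.161 between the lines), and the calls over all genes went from 3593 higher and 3326 lower to 2013 higher and 7259 lower. The set then had 2 genes higher and 8 lower, the risers being Cacnb2 and Kcnq1. Of the other genes called higher in Trsp-RIPKO, Snap25 was then at 0.16 (limma adjusted p = 0.171), Syt9 at 0.15 (adjusted p = 0.322), Cacna1a at 0.09 (adjusted p = 0.428), Cplx2 at 0.44 (adjusted p = 0.0649) and Rph3al at 0.48 (adjusted p = 0.0622). In Trsp-Ins1KO against TrspFF the same centring left 14 higher and 5 lower. Between the lines it moved the calls over all genes from 3666 higher and 3696 lower to 5702 higher and 2349 lower, and those of the set to 13 higher and 1 lower. Such centring shifts every gene by nearly the same amount, and no called difference of the set from TrspFF changed sign under it or under quantile normalization.

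**Figure D1:**
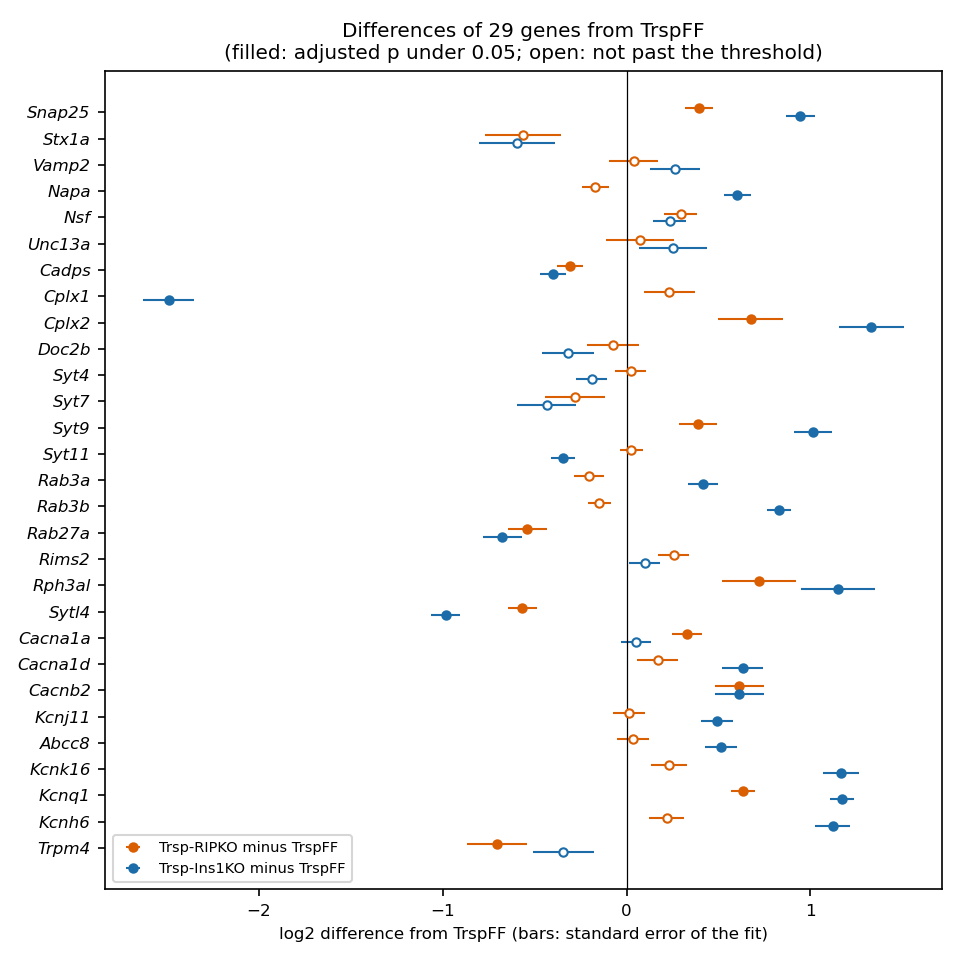
Log2 difference from TrspFF (horizontal axis) of the 29 tested genes, ordered by role from SNARE proteins to channels, in Trsp-RIPKO (orange) and Trsp-Ins1KO (blue) islets. Points are fitted differences of 2 against 2 arrays, bars are the standard error of the fit, and filled points passed an adjusted p of 0.05: 14 filled blue points lie right of 0 and 5 left, and 7 filled orange points lie right and 4 left.

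Among the SNARE proteins, Snap25 rose in both lines and the other SNAREs did not pass the test. Snap25, the plasma-membrane SNARE that contributes a pair of helices to the fusion bundle, was measured at 6.83 and 6.84 (TrspFF), 7.20 and 7.25 (Trsp-RIPKO) and 7.71 and 7.85 (Trsp-Ins1KO). The 3 groups did not overlap and the order of their levels was TrspFF, Trsp-RIPKO, Trsp-Ins1KO. The difference from TrspFF was 0.95 in Trsp-Ins1KO (SE 0.0776, limma adjusted p = 0.00202), a 1.93-fold level, and 0.39 in Trsp-RIPKO (adjusted p = 0.0194). Stx1a, the syntaxin that partners Snap25, was dim and lay lower in both lines without passing, at -2.28 and -2.64 (TrspFF) against -3.20 and -2.86 (Trsp-RIPKO) and -2.87 and -3.25 (Trsp-Ins1KO), with differences of -0.57 (SE 0.206, limma adjusted p = 0.0851) and -0.59 (adjusted p = 0.0662). Vamp2, the granule SNARE, differed by 0.04 and 0.26 and its Trsp-RIPKO arrays, 1.23 and 0.85, lay on either side of the TrspFF pair.

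Of the proteins that recycle used SNARE bundles, Napa differed between the lines on its brighter probe, and Nsf did not pass there. Napa, alpha-SNAP, brings the ATPase Nsf to the bundle, and Nsf pulls it apart. Napa stood at 4.29 and 4.32 (TrspFF), 4.10 and 4.17 (Trsp-RIPKO) and 4.96 and 4.85 (Trsp-Ins1KO). It rose by 0.60 in Trsp-Ins1KO (SE 0.0741, limma adjusted p = 0.00419), and the direct difference between the lines was 0.77 (adjusted p = 0.00273). A dimmer second probe of Napa gave 0.11 and -0.04 for these contrasts. Nsf did not pass in either line, at 0.30 in Trsp-RIPKO (SE 0.0889, limma adjusted p = 0.0537) and 0.23 in Trsp-Ins1KO (adjusted p = 0.0843). Of both priming factors, Cadps, which readies granules together with the lipid PIP2 of the membrane, fell by 0.31 in Trsp-RIPKO and 0.40 in Trsp-Ins1KO (SE 0.0714, limma adjusted p = 0.0284 and 0.0104), from 2.69 and 2.61 (TrspFF) to 2.30 and 2.38 (Trsp-RIPKO) and 2.24 and 2.25 (Trsp-Ins1KO). Unc13a, which opens syntaxin for assembly, was dim and overlapped between TrspFF and both lines, at -2.89 and -3.25 (TrspFF), -2.91 and -3.08 (Trsp-RIPKO) and -3.02 and -2.62 (Trsp-Ins1KO).

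The complexins gave the widest range of measured differences in the set, but Cplx1, at its low end, was not well above background in Trsp-Ins1KO. Complexins are small proteins that bind the assembled SNARE bundle and clamp or promote fusion. In Trsp-Ins1KO islets Cplx2 rose, and Cplx1 was measured lower but lost that call under normexp (0.11). Cplx2 was at 7.54 and 7.66 (TrspFF), 8.35 and 8.20 (Trsp-RIPKO) and 8.68 and 9.18 (Trsp-Ins1KO), with no overlap between groups. It rose by 1.33 in Trsp-Ins1KO (SE 0.178, limma adjusted p = 0.00508), a 2.52-fold level, and by 0.67 in Trsp-RIPKO (adjusted p = 0.0393). The other 3 probes of Cplx2 lay between 0.31 and 0.97 in Trsp-Ins1KO and between -0.13 and 0.43 in Trsp-RIPKO, so that the Trsp-RIPKO rise rests on the brightest probe. With the mean over probes it was 0.31 (adjusted p = 0.136).

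Cplx1 was at -2.56 and -2.58 in TrspFF and -2.38 and -2.30 in Trsp-RIPKO islets and fell to -4.87 and -5.26 in Trsp-Ins1KO islets, where it was well above background on neither array. Against the lowest measurable signal of those arrays it was at least 1.89-fold lower than in TrspFF and at least 2.22-fold lower than in Trsp-RIPKO (limma adjusted p = 0.001 and 0.000762 for the measured differences of -2.49 and -2.72). This probe passed the filter through the groups in which it was brighter. With normexp background correction, which lifts dim signals together, the differences were 0.11 (adjusted p = 0.223) and 0.00 (adjusted p = 0.973), so the call was lost. Doc2b, a soluble calcium sensor of fusion, lay at -2.52 and -2.52 (TrspFF), -2.58 and -2.62 (Trsp-RIPKO) and -2.64 and -3.05 (Trsp-Ins1KO) and did not pass in either line.

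Cplx1 is also expressed by neurons, and part of the nerve markers lay lower in Trsp-Ins1KO islets too. Of 10 tested neuron and Schwann cell markers 5 were well above background on all 6 arrays, and of these S100b (-1.28) and Elavl4 (-0.32) fell in Trsp-Ins1KO against TrspFF and Tubb3 rose (0.36), while in Trsp-RIPKO 0 fell and 1 rose. The other 5, Sox10, Prph, Nefl, Nefm and Uchl1, were well above background on both TrspFF and both Trsp-RIPKO arrays and on 0 Trsp-Ins1KO arrays, so they entered the test through the brighter groups, as Cplx1 did. Against the lowest measurable signal of the Trsp-Ins1KO arrays Prph was at least 5.20-fold, Nefl at least 3.08-fold and Uchl1 at least 1.55-fold lower than in TrspFF. Sox10 did not pass (-0.69), and Nefm was measured slightly higher there than in TrspFF (0.24, limma adjusted p = 0.491), against the higher floor of those arrays. Gfap, Cdh19 and Dbh entered in no group. The summed level of the tested markers, relative to the 75th percentile, ranged from 15.4 to 15.7 in TrspFF, 14.5 to 15.0 in Trsp-RIPKO and 14.7 to 16.1 in Trsp-Ins1KO islets. This sum adds linear intensities and is led by Th, the brightest of these markers. The mean log2 level of Th was 3.47 (TrspFF), 3.21 (Trsp-RIPKO) and 3.58 (Trsp-Ins1KO). Dim markers such as Prph and Nefl weigh little in the sum, so it cannot show whether they fell. The part of the nerve markers in the Cplx1 result was not tested. In whole islets, fewer cells of a type and less RNA per cell cannot be told apart.

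**Figure D2:**
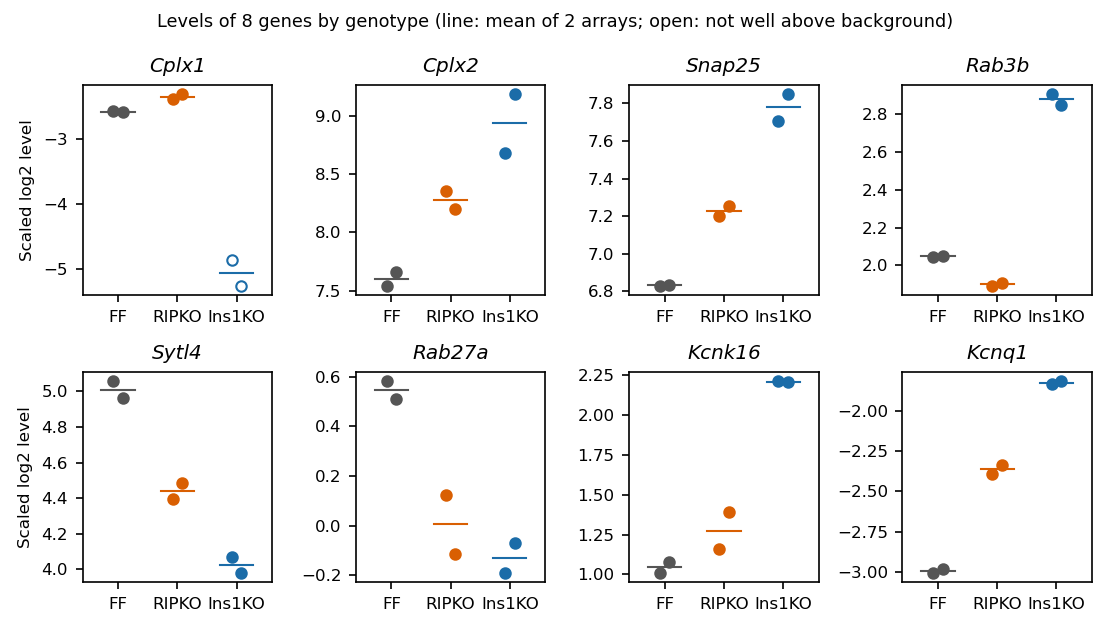
Scaled log2 level (vertical axis, own range in each panel) of 8 genes on each of the 6 arrays, by genotype. Points are arrays, lines are means of 2 arrays and open points were not well above background: Cplx1 drops out in Trsp-Ins1KO, Cplx2, Snap25 and Kcnq1 step up from TrspFF through Trsp-RIPKO, Sytl4 steps down, and Rab3b and Kcnk16 are set apart in Trsp-Ins1KO.

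The sequences ahead of 4 genes with large differences are shown so that their starting regions can be compared: both complexins, Sytl4, which fell in both lines, and Kcnk16, which rose most among the channels together with Kcnq1. Each is the 250 bases upstream of the annotated start, on the gene's own strand, from RefSeq on GRCm38.p6, with any motif in capitals. They lie at chr5:108550028-108550277 (minus strand, Cplx1), chr13:54302306-54302555 (plus strand, Cplx2), chrX:133981813-133982062 (minus strand, Sytl4) and chr14:20269270-20269519 (minus strand, Kcnk16).
Cplx1: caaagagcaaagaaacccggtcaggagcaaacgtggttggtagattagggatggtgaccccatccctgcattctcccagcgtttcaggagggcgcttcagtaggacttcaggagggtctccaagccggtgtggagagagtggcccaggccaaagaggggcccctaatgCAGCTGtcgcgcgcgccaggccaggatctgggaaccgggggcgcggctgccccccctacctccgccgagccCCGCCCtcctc
Cplx2: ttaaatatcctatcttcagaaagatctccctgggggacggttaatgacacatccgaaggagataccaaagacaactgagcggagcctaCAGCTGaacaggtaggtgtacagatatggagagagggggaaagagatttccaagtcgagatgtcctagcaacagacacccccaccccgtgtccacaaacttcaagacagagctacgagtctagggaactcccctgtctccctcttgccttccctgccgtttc
Sytl4: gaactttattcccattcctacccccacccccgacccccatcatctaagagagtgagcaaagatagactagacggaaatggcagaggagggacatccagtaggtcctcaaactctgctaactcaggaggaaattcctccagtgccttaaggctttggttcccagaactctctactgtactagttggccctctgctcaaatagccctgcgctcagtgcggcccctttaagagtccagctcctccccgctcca
Kcnk16: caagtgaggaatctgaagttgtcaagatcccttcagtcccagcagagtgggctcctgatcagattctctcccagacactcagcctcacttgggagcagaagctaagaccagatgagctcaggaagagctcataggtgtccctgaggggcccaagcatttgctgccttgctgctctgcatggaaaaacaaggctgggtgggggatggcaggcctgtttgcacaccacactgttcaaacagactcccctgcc

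On both strands 5 motifs were searched: the GC box GGGCGG, the cyclic AMP response element TGACGTCA, the TATA box TATAAA, the E-box CAGCTG and the RE1 partial site TTCAGCACC. The Cplx1 window, with 64.8% G and C, held a GC box that begins 11 bases before the start and an E-box that begins 82 bases before it. The Cplx2 window, with 50.8% G and C, held an E-box that begins 162 bases before the start, and the windows of Sytl4 and Kcnk16 held none of the 5 motifs. An entry existed for 20 of the 31 genes, in 26 windows. The GC box was found in 14 of the 26 windows against 32.7% of 32851 windows of all genes, and the E-box in 9 of 26 against 13.0%. The TATA box was found in 2 (Cacna1d and Rab3b) against 12.4%, the RE1 partial site in 1 (Kcnh6) against 0.301%, and the cyclic AMP response element in 0 against 1.55%. The windows of the set had a median G and C content of 58.0%, against 52.4% over all windows. A match describes the letters of the window and says nothing of binding.

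Among the synaptotagmins, Syt9 rose and Syt11 fell. Syt9, which is found on granules and binds calcium, stood at -2.98 and -2.85 (TrspFF), -2.61 and -2.45 (Trsp-RIPKO) and -1.82 and -1.99 (Trsp-Ins1KO), without overlap. It rose by 1.01 in Trsp-Ins1KO (SE 0.104, limma adjusted p = 0.00292), a 2.02-fold level, and by 0.39 in Trsp-RIPKO (adjusted p = 0.0409). The Trsp-RIPKO call was lost in 6 of 10 settings other than leaving out 1 array. The difference was 0.16 under normexp (adjusted p = 0.112), 0.20 under quantile normalization (adjusted p = 0.175) and 0.15 under median scaling (adjusted p = 0.322). Syt11, a relative that does not respond to calcium in the same way, was at 1.40 and 1.46 (TrspFF), 1.46 and 1.46 (Trsp-RIPKO) and 1.08 and 1.09 (Trsp-Ins1KO), and in Trsp-Ins1KO it fell by 0.35 (SE 0.0646, limma adjusted p = 0.0117). Without TrspFF replicate 1 or 2 the fall was -0.38 (adjusted p = 0.0631) or -0.32 (adjusted p = 0.0832). Syt4, which binds calcium poorly and is tied to beta-cell maturation, lay at 1.46 and 1.51 (TrspFF), 1.51 and 1.51 (Trsp-RIPKO) and 1.21 and 1.38 (Trsp-Ins1KO) and did not pass. Syt7, the main high-affinity sensor of beta cells, gave -0.28 and -0.43 on its brighter probe (SE 0.161, limma adjusted p = 0.221 and 0.0795) and 0.10 and 1.19 on the other, so no direction is given for it.

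The small GTPases of the granule split by member. Rab3a and Rab3b, which mark docked granules, were higher in Trsp-Ins1KO than in either other group. Rab3b was at 2.05 and 2.05 (TrspFF), 1.89 and 1.91 (Trsp-RIPKO) and 2.90 and 2.85 (Trsp-Ins1KO), a rise of 0.83 (SE 0.0642, limma adjusted p = 0.00187), or 1.77-fold. Rab3a was at 4.04 and 4.05 (TrspFF), 3.77 and 3.91 (Trsp-RIPKO) and 4.51 and 4.42 (Trsp-Ins1KO), and rose by 0.42 (SE 0.0812, limma adjusted p = 0.0133). With normexp background correction this rise was 0.15 and did not pass (adjusted p = 0.103). Both lay lower in Trsp-RIPKO than in TrspFF without passing (-0.20, limma adjusted p = 0.106, and -0.15, adjusted p = 0.127). The direct difference between the lines was 0.98 for Rab3b and 0.62 for Rab3a (limma adjusted p = 0.00123 and 0.0055). Rab27a, the GTPase that recruits effectors for docking, went the other way in both lines, from 0.58 and 0.51 (TrspFF) to 0.12 and -0.11 (Trsp-RIPKO) and -0.19 and -0.07 (Trsp-Ins1KO), falling by 0.54 and 0.68 (SE 0.106, limma adjusted p = 0.0192 and 0.00734).

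Of the Rab effectors, Sytl4 fell and Rph3al rose in both lines. Sytl4, granuphilin, which binds Rab27a and holds granules at the membrane, was at 5.06 and 4.96 (TrspFF), 4.40 and 4.49 (Trsp-RIPKO) and 4.07 and 3.98 (Trsp-Ins1KO). It fell by 0.98 in Trsp-Ins1KO (SE 0.0791, limma adjusted p = 0.00195), to 0.506 of the TrspFF level, and by 0.57 in Trsp-RIPKO (adjusted p = 0.00995). Sytl4 lies on the X chromosome, and the part of the sex-linked differences in these falls was not tested. Between the lines the difference was -0.42 (adjusted p = 0.0145), but it did not pass under median scaling (-0.25, adjusted p = 0.104) or without Trsp-RIPKO replicate 2 (-0.37, adjusted p = 0.0693). Rph3al, Noc2, an effector of both Rab3 and Rab27, was at -1.91 and -1.50 (TrspFF), -1.13 and -0.84 (Trsp-RIPKO) and -0.73 and -0.37 (Trsp-Ins1KO). It rose by 1.15 in Trsp-Ins1KO and 0.72 in Trsp-RIPKO (SE 0.202, limma adjusted p = 0.00997 and 0.0454). Rims2, an active-zone scaffold that links Rab3 to calcium channels, was dim and did not pass, at 0.26 in Trsp-RIPKO (SE 0.0846, limma adjusted p = 0.0664) and 0.10 in Trsp-Ins1KO.

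**Figure D3:**
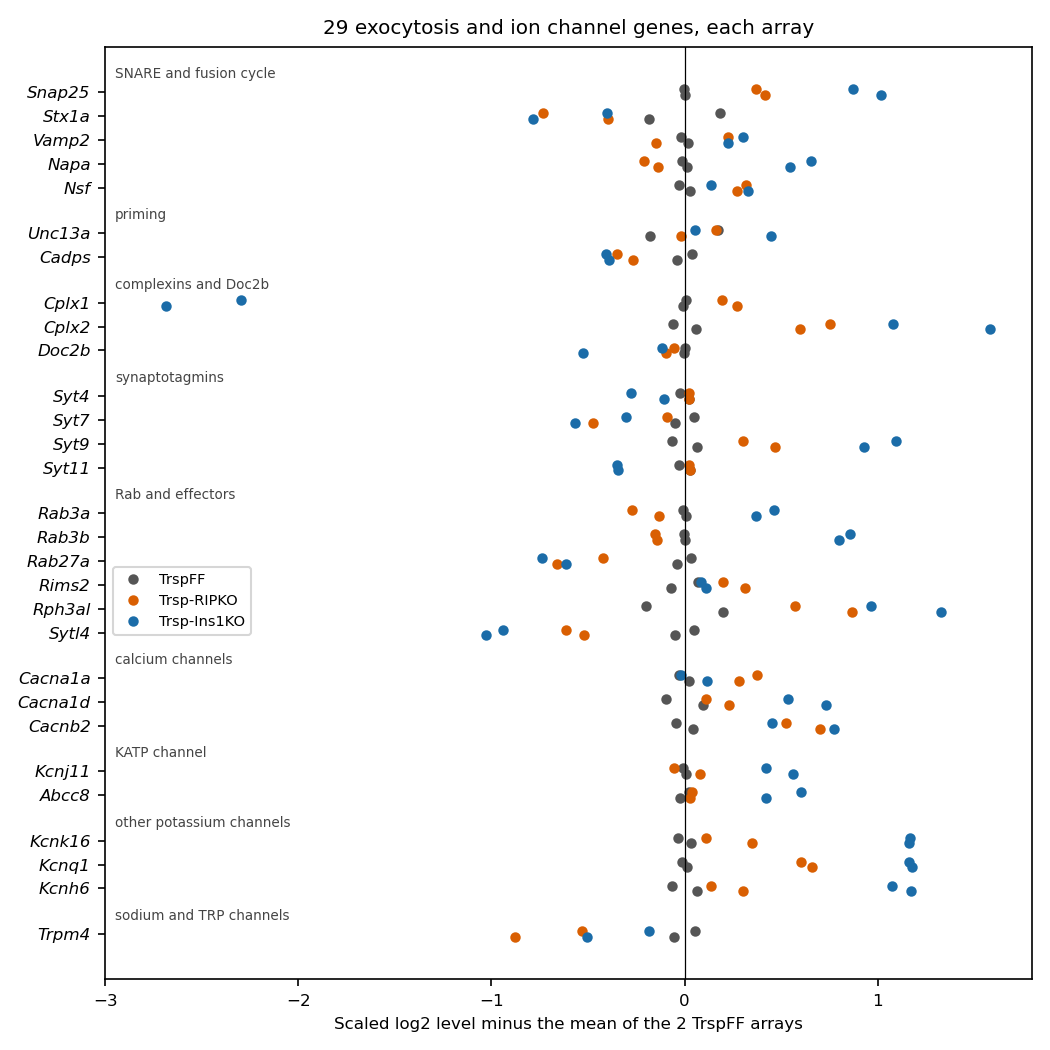
Scaled log2 level of each of the 29 tested genes on each of the 6 arrays, minus the mean of the 2 TrspFF arrays (horizontal axis), grouped by role. Each point is 1 array: for Snap25, Syt9, Kcnk16, Kcnq1 and Kcnh6 the 2 Trsp-Ins1KO points lie right of all other points, for Sytl4 and Syt11 they lie left of all others, and the Cplx1 points of Trsp-Ins1KO lie farthest left.

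Of the calcium channel genes, Cacna1d and Cacnb2 rose in Trsp-Ins1KO and Cacnb2 and Cacna1a in Trsp-RIPKO. Cacna1d, the pore of an L-type channel, was at 0.85 and 1.04 (TrspFF), 1.05 and 1.17 (Trsp-RIPKO) and 1.48 and 1.67 (Trsp-Ins1KO), a rise of 0.63 in Trsp-Ins1KO (SE 0.112, limma adjusted p = 0.0101), and its other probe gave 0.85. Without TrspFF replicate 1 the rise was 0.54 (adjusted p = 0.0614). Cacnb2, an auxiliary subunit that brings the pore to the surface, rose by 0.61 and 0.61 on its brighter probe (SE 0.133, limma adjusted p = 0.0241 and 0.0177), but its other probe gave -0.09 and -0.69. Without TrspFF replicate 1 or 2 the adjusted p in Trsp-Ins1KO was 0.0923 or 0.0667. The mean over its probes, 0.26 and -0.04, did not pass (adjusted p = 0.137 and 0.813). Cacna1a, the pore of the P/Q-type channel, was at 1.67 and 1.72 (TrspFF), 2.07 and 1.98 (Trsp-RIPKO) and 1.68 and 1.81 (Trsp-Ins1KO). It rose by 0.33 in Trsp-RIPKO (SE 0.0816, limma adjusted p = 0.0331), with 0.63 on its other probe, while in Trsp-Ins1KO the probes gave 0.05 and -0.49.

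Both subunits of the KATP channel rose in Trsp-Ins1KO and did not pass in Trsp-RIPKO. Abcc8 encodes the sulfonylurea receptor, and stood at 7.17 and 7.13 (TrspFF), 7.19 and 7.18 (Trsp-RIPKO) and 7.75 and 7.57 (Trsp-Ins1KO). It rose by 0.51 in Trsp-Ins1KO (SE 0.0855, limma adjusted p = 0.00862), or 1.43-fold, with 0.57 on its other probe, against 0.04 in Trsp-RIPKO (adjusted p = 0.768). Kcnj11 encodes the pore and stood at -0.37 and -0.36 (TrspFF), -0.42 and -0.28 (Trsp-RIPKO) and 0.06 and 0.20 (Trsp-Ins1KO), a rise of 0.49 (SE 0.0872, limma adjusted p = 0.0102), or 1.41-fold. The dimmer probe of Kcnj11 gave 0.03 and was well above background on 1 Trsp-Ins1KO array. With the mean over probes the rise of Kcnj11 was 0.26 (adjusted p = 0.14). Without TrspFF replicate 1 or 2, the adjusted p was 0.052 or 0.0569 for Abcc8 and 0.0651 or 0.0581 for Kcnj11, and with quantile normalization it was 0.0545 for Abcc8.

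All 3 other potassium channels rose in Trsp-Ins1KO, and Kcnq1 in Trsp-RIPKO as well. Kcnk16, a background channel with a pair of pore domains that is known from islets, was at 1.01 and 1.08 (TrspFF), 1.16 and 1.39 (Trsp-RIPKO) and 2.21 and 2.21 (Trsp-Ins1KO). Its rise in Trsp-Ins1KO was 1.17 (SE 0.0985, limma adjusted p = 0.00214), or 2.24-fold, while in Trsp-RIPKO the difference of 0.23 did not pass (adjusted p = 0.122). Kcnq1, a voltage-gated channel, was at -3.01 and -2.98 (TrspFF), -2.39 and -2.33 (Trsp-RIPKO) and -1.83 and -1.82 (Trsp-Ins1KO), and rose by 1.17 in Trsp-Ins1KO and 0.63 in Trsp-RIPKO (SE 0.0648, limma adjusted p = 0.000991 and 0.00603). The 3 groups of Kcnq1 were again in the order TrspFF, Trsp-RIPKO, Trsp-Ins1KO with no overlap, and it had the smallest adjusted p of the set in Trsp-RIPKO. Kcnh6, of the ERG family that aids repolarisation, was at -1.74 and -1.62 (TrspFF), -1.54 and -1.38 (Trsp-RIPKO) and -0.60 and -0.51 (Trsp-Ins1KO), a rise of 1.12 in Trsp-Ins1KO (SE 0.0948, limma adjusted p = 0.00214). A dimmer probe of Kcnh6, well above background on the Trsp-RIPKO arrays and on 0 Trsp-Ins1KO arrays, gave 0.12. Between the lines the brighter probe differed by 0.90 and the dimmer by -0.51, and with the mean over probes that difference was 0.20 and did not pass (limma adjusted p = 0.213).

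Trpm4, a cation channel that calcium opens and that depolarises the membrane, was the 1 channel gene of the set called lower than TrspFF. It was at -1.40 and -1.51 (TrspFF), -1.98 and -2.33 (Trsp-RIPKO) and -1.63 and -1.96 (Trsp-Ins1KO). The fall of 0.70 in Trsp-RIPKO passed (SE 0.165, limma adjusted p = 0.0288), and the difference of -0.34 in Trsp-Ins1KO did not (adjusted p = 0.144). The direct difference between the lines, 0.36, did not pass either (adjusted p = 0.141), so the lines are not shown to differ in Trpm4.

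**Figure D4:**
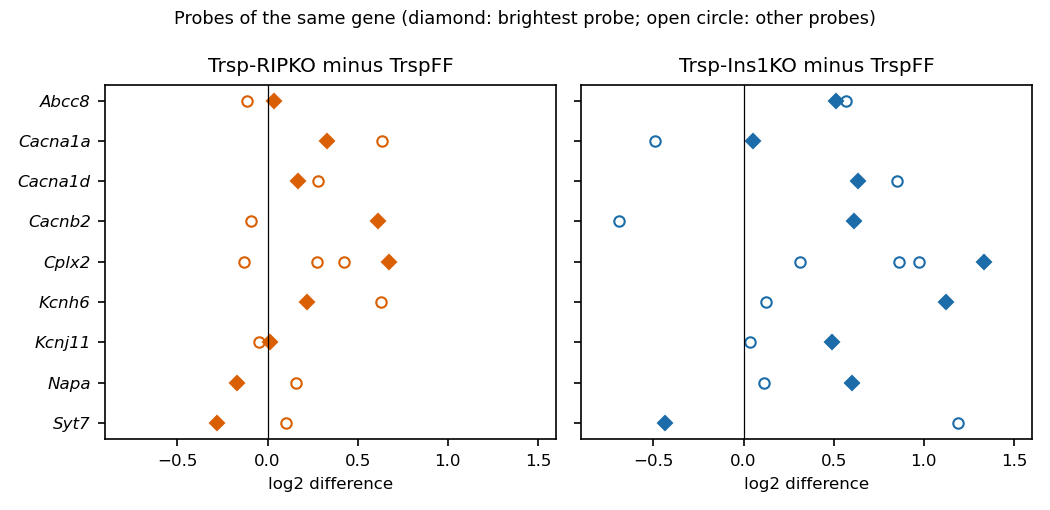
Log2 difference from TrspFF (horizontal axis) of every probe of the 9 genes with several probes, in Trsp-RIPKO (left) and Trsp-Ins1KO (right). Diamonds are the brightest probe, which stands for the gene, and open circles are the others: at least 1 probe has the opposite sign for 6 genes in Trsp-RIPKO and for 3 in Trsp-Ins1KO (Cacna1a, Cacnb2 and Syt7).

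How far the calls rest on single arrays differed between the lines. Cplx1 stands apart here, since it was well above background on neither Trsp-Ins1KO array and entered through the brighter groups. Keeping its call without 1 array therefore says little of its level. With normexp its difference from TrspFF in Trsp-Ins1KO was 0.11 (limma adjusted p = 0.223). In Trsp-RIPKO against TrspFF 11 genes of the set were called, and 0 of them kept the call when each of the 6 arrays was left out in turn. The closest were Kcnq1, whose call was lost without TrspFF replicate 1 (0.62, limma adjusted p = 0.0536), and Sytl4, lost without TrspFF replicate 1 (-0.52, adjusted p = 0.071) or 2 (-0.62, adjusted p = 0.0532). The other 9 calls were lost without TrspFF replicate 1, without TrspFF replicate 2 and without Trsp-RIPKO replicate 2, and 7 of them (not Rab27a and Trpm4) without Trsp-RIPKO replicate 1, with adjusted p from 0.0621 (Cacnb2) to 0.19 (Syt9). In Trsp-Ins1KO against TrspFF 19 were called and 10 kept the call in this way: Snap25, Syt9, Rab3b, Sytl4, Cplx1, Cplx2, Napa, Kcnk16, Kcnq1 and Kcnh6. Without TrspFF replicate 1, Rab27a stood at -0.64 (adjusted p = 0.0516) and Rph3al at 0.95 (adjusted p = 0.0511). Cadps and Rab3a lost their calls without either TrspFF array, with adjusted p of 0.0765 and 0.0508 for Cadps and 0.08 and 0.0709 for Rab3a.

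The wider machinery was followed through 170 further names of exocytosis and channel genes, of which 118 were tested. In Trsp-Ins1KO against TrspFF 34 rose (28.8%) and 25 fell (21.2%), with a median of 0.09, where 23.0% of all genes rose and 22.9% fell. In Trsp-RIPKO 29 rose (24.6%) and 17 fell (14.4%), with a median of 0.06, where 18.9% of all genes rose and 17.5% fell. The shares of the wider list thus lay near those of the array. Of 22 tested potassium channel genes outside the set, 9 rose (40.9%) and 2 fell (9.09%) in Trsp-Ins1KO. Abcc9, the sulfonylurea receptor relative of other tissues, rose by 1.08 (SE 0.112, limma adjusted p = 0.00301). Of 10 calcium channel and store genes 4 rose and 2 fell. Of 26 sodium, TRP and other channel genes 11 rose (42.3%) and 3 fell (11.5%), among them Scn8a, a sodium channel pore, at 1.03, Ano1, a chloride channel that calcium opens, at 0.91, and Trpm5, a taste and islet relative of Trpm4, at -1.70 (SE 0.111, limma adjusted p = 0.00135).

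Of 23 further SNARE proteins and regulators, 9 fell (39.1%) and 2 rose (8.70%) in Trsp-Ins1KO, against 22.9% and 23.0% of all genes. Vamp7 and Vamp8, SNAREs of late endosomes and granules, fell by 0.88 and 0.84 (SE 0.0689 and 0.118, limma adjusted p = 0.00187 and 0.00556), whereas Snap23, the broadly expressed relative of Snap25, rose by 1.13 (SE 0.0843, limma adjusted p = 0.00172). Of 8 synaptotagmins 2 rose and 2 fell, with the calcium sensor Syt1 at -0.77 (limma adjusted p = 0.00279). Of 29 Rab and tether genes 6 rose (20.7%) and 7 fell (24.1%), which is near the shares of the array. In Trsp-RIPKO the largest rises were those of Cftr, the chloride channel of duct cells, at 1.56, Rab3c at 1.30, Cadps2, the relative of Cadps, at 1.09 and Sytl3 at 0.72 (limma adjusted p = 0.00296, 0.00399, 0.00629 and 0.0178). The largest falls were Kcnj5, the pore of a potassium channel gated by G proteins, at -1.39, Trpm5 at -0.98, Stxbp3, a syntaxin-binding protein, at -0.94 and Vamp8 at -0.69 (limma adjusted p = 0.00185, 0.00724, 0.0063 and 0.0145). Between the lines Kcnj5 (1.58), Kcnh2 (1.00) and the calcium release channels Itpr2 (0.85) and Itpr3 (0.81) were highest in Trsp-Ins1KO, and Cftr (-2.0), Syt1 (-1.20), Rab3c (-1.03) and Stx2 (-0.89) lowest, all past the threshold.

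Markers of the islet's cell types also differed between the groups. All 12 beta-cell markers were well above background on all 6 arrays. Of them 6 rose and 4 fell in Trsp-Ins1KO against TrspFF, with Ins1 at 0.99, Ins2 at 0.86 and Iapp at 0.83 and with Slc2a2 at -0.71, Slc30a8 at -0.75 and Glp1r at -1.49, and 0 rose and 4 fell in Trsp-RIPKO. The summed level of beta-cell markers relative to the 75th percentile was 3300 to 3690 in TrspFF, 3650 to 3910 in Trsp-RIPKO and 5930 to 6500 in Trsp-Ins1KO islets. That of 7 alpha-cell markers was 722 to 751, 623 to 671 and 513 to 531, and that of 4 delta-cell markers 267 to 271, 221 to 234 and 152 to 162. Such sums add linear intensities and are led by the brightest markers. These were Ins1, Ins2 and Iapp for beta cells, Gcg for alpha cells and Sst for delta cells. Delta-cell markers fell in 3 of 4 and alpha-cell markers in 3 of 7 in Trsp-Ins1KO. The 3 markers of PP and epsilon cells, Ppy, Pyy and Ghrl, all fell in Trsp-RIPKO, with a median of -1.10, and Ppy and Ghrl fell in Trsp-Ins1KO. The rest are counted over markers well above background on all 6 arrays, beside the array-wide shares of 18.9% higher and 17.5% lower for Trsp-RIPKO, or 23.0% higher and 22.9% lower for the other line. Of 12 acinar markers 10 rose in Trsp-RIPKO and 9 in Trsp-Ins1KO, of 7 endothelial markers 5 and 5, and of 7 macrophage markers 3 and 3. Of 6 fibroblast markers 5 rose in Trsp-RIPKO, and 4 fell and 1 rose in Trsp-Ins1KO. Cftr stands in the duct marker list as well, where Cftr and Spp1 rose in Trsp-RIPKO and Spp1 rose and Cftr fell in Trsp-Ins1KO, of 4. Intestinal markers gave the largest single differences of these lists. Of 8 tested, 5 were well above background on both Trsp-RIPKO arrays and 0 TrspFF arrays. These 5 therefore entered the test through groups in which they were brighter. The Paneth-cell defensin Defa17 was at least 46.2-fold and the fatty acid binding protein Fabp1 at least 13.1-fold higher in Trsp-RIPKO than in TrspFF. The measured differences were 7.71 and 5.15 (limma adjusted p = 0.000153 and 0.00154). Fabp1 was also well above background on both Trsp-Ins1KO arrays, and Defa17 on 0 of them. The part of these shifts in the levels of the exocytosis and channel genes was not tested.

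**Figure D5:**
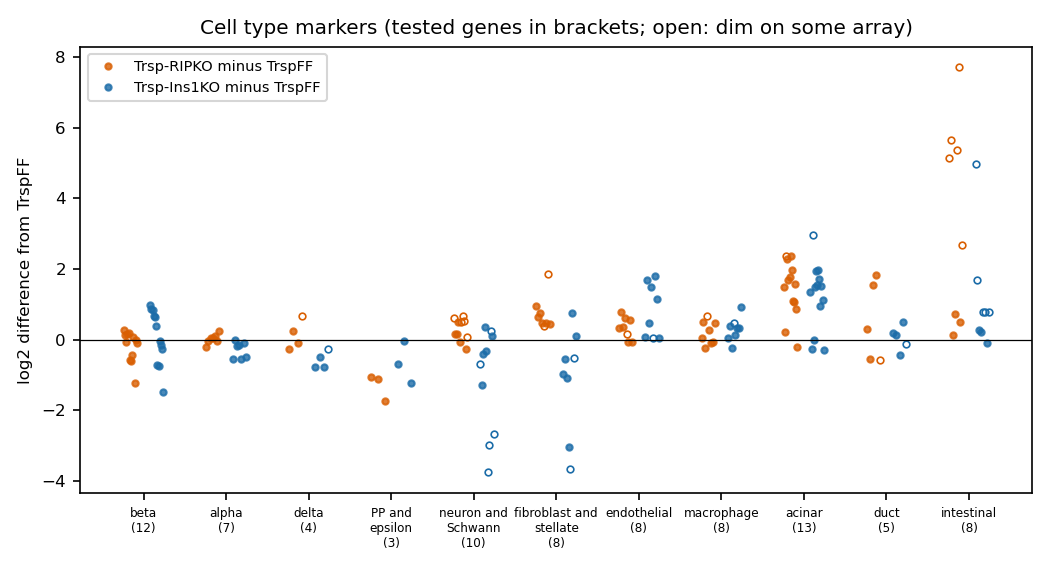
Log2 difference from TrspFF (vertical axis) of cell type markers in Trsp-RIPKO (orange) and Trsp-Ins1KO (blue) islets, each point a tested gene, with the number of genes in brackets and open points for genes not well above background on all 6 arrays. Acinar markers lie above 0 in both lines with few exceptions, and the 3 lowest nerve markers of Trsp-Ins1KO are open points. The intestinal marker Defa17, at 7.71 in Trsp-RIPKO, is open too, being well above background on 0 TrspFF arrays.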

How the data were processed

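Total RNA of islets was labelled with Cy3, per the labels' protocols, and hybridised to 6 Agilent arrays of design 026655. Per the file headers, the authors read them with Feature Extraction 10.7.3.1. The deposited scanner files hold processed intensity (background-subtracted and detrended, not scaled between arrays), the median intensity of spot and local background, and flags of 0 or 1. A further deposited table holds log2 values of the authors, made by steps that the sources used here do not give. Its differences equalled those of log2 processed intensity scaled to the 75th percentile (slope 1) with each probe centred, and its column medians ran from -0.079 to 0.14. It served as an alternative, once matched to scanner files and once under its own names.

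From the scanner files, 1377 control spots and all outlier spots were dropped, spots were averaged over 39426 probes, and log2 intensity minus the 75th percentile of each array was used. RefSeq accessions named 26055 probes (66.1%) through a table of GRCm38.p6, used for names and promoter windows only, since the array annotation is on another build. Sequences left without a symbol were counted as genes under their own identifier. Of the 19021 genes tested, 13370 carried a symbol, and the array-wide shares cover both kinds. Probes had to be well above background on both arrays of 1 or more groups, and the brightest such probe stood for its gene. Bounds ("at least N-fold") set the mean of the brighter group against the dimmest signal still above background on each array, or the probe's own where that was higher. Contrasts of group means were fitted with limma 3.58.1 in R 4.3.3 over all 6 arrays, two-sided, with 5.1 total degrees of freedom and adjustment over 19021 genes. The fit was tested on simulated data. No probe was named for Trsp, and the deletion itself was therefore not checked. Reading and plots used Python 3.11.15 (pandas 2.3.3, numpy 2.4.6, matplotlib 3.10.9).

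All 31 genes of the set are reported, and of the wider list the 4 largest rises and falls per comparison among genes called and above background on all 6 arrays. Some markers of the neuron and Schwann cell list are not reported here and are left out of its counts. The set and the lists were chosen with earlier results of these data known. Alternatives were normexp correction (offset 50), quantile normalization, median scaling, no filter or a stricter filter on dim probes, the mean over probes, a replicate block, trend and robust priors, only the groups compared, both readings of the authors' table and leaving out each array. The number of arrays limits the precision.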

Additional observations from a re-analysis of the deposited data

Results flagged for a closer look

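The 2 Cre lines differed from each other, by the direct limma contrast of Trsp-Ins1KO minus Trsp-RIPKO, in 16 of the 29 genes, and each of these is listed because the differences of the 2 lines from TrspFF were unequal by this test. Trsp-Ins1KO was higher for the fusion genes Rab3b (0.98), Napa (0.77), Cplx2 (0.66), Syt9 (0.63), Rab3a (0.62) and Snap25 (0.55). It was higher for the channel genes Kcnk16 (0.94), Kcnh6 (0.90), Kcnq1 (0.54), Kcnj11 (0.48), Abcc8 (0.48) and Cacna1d (0.46). It was lower for Sytl4 (-0.42), Syt11 (-0.37) and Cacna1a (-0.28), and Cplx1 is taken up last. The calls of Snap25, Syt9, Rab3a, Rab3b, Napa, Kcnk16 and Kcnq1 held under all 16 alternative settings run for them, the names of the authors' table set aside. These settings are not all independent. The authors' table matched to scanner files repeats the main levels, and leaving out a TrspFF array repeats the fit of only the groups compared. The dimmer probe of Napa gave -0.04 in this contrast. The calls of the other 9 were each lost under 1 or more. Those of Cplx2, Cacna1a and Cacna1d were lost under several, and that of Abcc8 under quantile normalization (adjusted p = 0.0554) and without either Trsp-RIPKO array (adjusted p = 0.0554 and 0.0588). With the mean over probes Kcnh6 stood at 0.20 (adjusted p = 0.213) and Kcnj11 at 0.28 (adjusted p = 0.13), and with median scaling Sytl4 at -0.25 (adjusted p = 0.104) and Syt11 at -0.21 (adjusted p = 0.0972). Cplx1 was measured at -2.72, but it was well above background on neither Trsp-Ins1KO array and entered through the brighter groups, so it can be given only as at least 2.22-fold lower. With normexp its difference was 0.00 (adjusted p = 0.973). The Trsp-RIPKO arrays lay alone on their slide, so slide and line cannot be told apart in this contrast.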

How the results depend on the processing

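In Trsp-Ins1KO against TrspFF the counts of 14 genes higher and 5 lower stayed within 1.5 times under normexp, quantile normalization, median scaling, both other filters, the mean over probes, trend and robust priors and the fit of only the groups compared. The calls of Snap25, Syt9, Rab3b, Sytl4, Cplx2, Napa, Kcnk16, Kcnq1 and Kcnh6 held in all of these and in all fits with 1 array left out. Among those fits, leaving out a Trsp-RIPKO array repeats the fit of only the groups compared. The calls over all genes in this contrast were less steady. From 4376 higher and 4362 lower of 19021 they went to 9199 and 4772 with normexp, where the set had 17 higher. The median was then 0.278 in the set and 0.16 over all genes, against 0.264 and -0.014 in the main fit. With no filter 10243 of 32494 genes were higher and 3701 lower. In Trsp-RIPKO against TrspFF 2 of 11 calls, Kcnq1 and Sytl4, held in all settings other than leaving out 1 array (the names of the authors' table set aside). They did not hold when arrays were left out in turn. The genes called over the array numbered 6919 in Trsp-RIPKO against TrspFF, 8738 in Trsp-Ins1KO against TrspFF and 7362 between the lines. With no filter on dim probes they numbered 2691, 13944 and 11642, and with normexp 13971 in Trsp-Ins1KO against TrspFF and 12057 between the lines. For the genes of the set, no filter left 1 higher and 1 lower in Trsp-RIPKO. Normexp gave 8 lower there and 19 higher between the lines. Median scaling gave 2 higher, 8 lower and a median of -0.2 in Trsp-RIPKO against TrspFF, and 1 lower and a median of 0.394 between the lines, where quantile normalization gave a median of 0.349. Under the names of the authors' table, 4 were higher and 12 lower in Trsp-RIPKO against TrspFF (median -0.226), 5 higher and 14 lower in Trsp-Ins1KO against TrspFF (median -0.264), and 4 higher and 7 lower between the lines (median -0.038). That alternative exchanges the names of 4 arrays, and the cause of the other changes was not tested.

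Leaving out 1 array at a time gave 861 to 7697 genes called in Trsp-RIPKO against TrspFF, with 0 to 8 of the set higher and 0 to 4 lower. In Trsp-Ins1KO against TrspFF it gave 3788 to 8240 genes called, with 8 to 15 of the set higher, 2 to 6 lower and a median of 0.264 to 0.407. Between the lines it gave 4178 to 6580, with 9 to 12 higher and 1 to 5 lower. A lone array was assumed to vary like the other groups. The replicate numbers did not pair the samples (deviations of same-numbered arrays correlated at 0.0934, 0.0794 and 0.0645). With a replicate block the set had 5 higher and 4 lower in Trsp-RIPKO against TrspFF, 14 higher and 7 lower in Trsp-Ins1KO against TrspFF, and 13 higher and 3 lower between the lines.

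Single genes of the set took the opposite sign as follows, most of them with small differences. With normexp these were in Trsp-RIPKO minus TrspFF Syt4 (-0.04), Syt11 (-0.15), Doc2b (0.04), Kcnj11 (-0.05), Abcc8 (-0.03); in Trsp-Ins1KO minus TrspFF Stx1a (0.18), Syt7 (0.17), Cplx1 (0.11), Doc2b (0.28), Cacna1a (0.00), Trpm4 (0.01); in Trsp-Ins1KO minus Trsp-RIPKO Stx1a (0.45), Vamp2 (-0.19), Syt7 (0.21), Rab27a (0.00), Rims2 (0.26), Doc2b (0.24). With quantile normalization they were in Trsp-RIPKO minus TrspFF Unc13a (-0.16), Abcc8 (-0.02); in Trsp-Ins1KO minus Trsp-RIPKO Stx1a (0.12). With median scaling they were in Trsp-RIPKO minus TrspFF Vamp2 (-0.20), Unc13a (-0.17), Syt4 (-0.22), Syt11 (-0.21), Cplx1 (-0.01), Cacna1d (-0.07), Kcnj11 (-0.23), Abcc8 (-0.20), Kcnk16 (-0.01), Kcnh6 (-0.02); in Trsp-Ins1KO minus TrspFF Cacna1a (-0.02); in Trsp-Ins1KO minus Trsp-RIPKO Stx1a (0.14), Syt7 (0.01), Rab27a (0.03), Rims2 (0.01), Nsf (0.11), Cadps (0.08). With the mean over probes they were in Trsp-RIPKO minus TrspFF Kcnj11 (-0.02), Abcc8 (-0.04); in Trsp-Ins1KO minus TrspFF Syt7 (0.38), Cacna1a (-0.22), Cacnb2 (-0.04); in Trsp-Ins1KO minus Trsp-RIPKO Syt7 (0.47), Cacnb2 (-0.30). With 1 array left out, the ranges that crossed or touched 0 were in Trsp-RIPKO minus TrspFF Syt4 (0.00 to 0.05), Syt11 (0.00 to 0.06), Unc13a (-0.10 to 0.25), Vamp2 (-0.15 to 0.23), Kcnj11 (-0.06 to 0.08); in Trsp-Ins1KO minus TrspFF Cacna1a (-0.02 to 0.12); in Trsp-Ins1KO minus Trsp-RIPKO Syt7 (-0.35 to 0.04), Cacnb2 (-0.16 to 0.16), Stx1a (-0.22 to 0.16), Nsf (-0.16 to 0.03), Unc13a (-0.02 to 0.38). Of these genes only Cplx1 and Cacnb2 had a called difference that turned, both in Trsp-Ins1KO against TrspFF. The lower intensity of the Trsp-Ins1KO arrays limits what can be said of dim genes there.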
